A study of Bos taurus with 30 samples.

Results

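The testis miRNAs described here are the 4 mature forms that come from imprinted loci other than the DLK1-DIO3 region: bta-miR-483 of the IGF2 gene, bta-miR-335 of the MEST gene, and both arms of one hairpin, bta-miR-296-3p and bta-miR-296-5p, of the GNAS region (the prefix bta, for cattle, is mostly left off from here on). They were chosen by name and genomic origin, and they are 4 of the 1030 bovine miRNAs in the table. Each had a value above 0 in all 30 libraries and a value of at least 1 in all 30, so all 4 passed the filter on low values and all 4 were tested among 387 miRNAs.

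The libraries hold testis small RNA of 30 bull calves of the Holstein-Friesian breed, 1 library per calf, collected at 12 weeks of age. Feeding differed from 2 weeks of age. The High plane of nutrition gave its 15 calves 10 litres of milk daily, holding 1.5 kg of replacer powder, and concentrate without limit, with a planned growth of 1.0 kg a day. The 15 on the Moderate plane were fed 4 litres daily, holding 0.5 kg of powder, plus 0.5 kg of concentrate, with a planned growth of 0.5 kg a day. Both diets were milk replacer with concentrate, no unfed or untreated group was analysed here, and the comparison is between 2 feeding levels.

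An imprinted gene is transcribed mainly from the chromosome of one parent. IGF2, an insulin-like growth factor that promotes fetal and early growth, and MEST, a gene of mesodermal tissue, are classically expressed from the paternal copy, and each carries a miRNA in an intron. The GNAS locus, which encodes the stimulatory G protein alpha subunit used by gonadotropin and other hormone receptors, gives rise to maternal, paternal and biallelic transcripts, and miR-296 lies beside it. A miRNA hairpin is cut into 2 strands, named 5p and 3p after the arm they come from, and each strand that is loaded into the silencing complex lowers the output of the mRNAs it pairs with. In the RefSeq gene table of assembly ARS-UCD2.0 the gene of miR-483 lay within the span of IGF2 on chromosome 29 and that of miR-335 within MEST on chromosome 4. The gene of miR-296 lay on chromosome 13 inside the non-coding RNA LOC107133071, together with the gene of miR-6123. Coordinates are not printed because no source used here names the build behind the files, and the table does not say which strand or intron is involved. The host mRNAs themselves were not measured by this assay.

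Values are CPM (reads scaled to a common library size) after edgeR's TMM scaling of library sizes, and are written without a unit from here on. Recovered depth was 6.0 to 19.98 M reads (M, mega) per library. It fell into a range up to 10.3 M (24 libraries, 11 High and 13 Moderate) and a range from 16.7 M (6 libraries, 4 High and 2 Moderate). One library stood apart: in Moderate replicate 5 miR-10b took 84.8% of the reads, against 37.0% to 49.0% in the other 29. For the 4 miRNAs, results over all libraries that moved without it are therefore given both ways. Calls of other named miRNAs are given only with it included. Over all tested miRNAs 19 passed in limma with that library and 44 without it, so those calls may differ without it. The diet used here is the diet characteristic of each sample. The titles name the other diet for 18 of the 30 libraries (9 of each diet). The code of each library ends in H or L, and this letter matched the characteristic (High or Moderate) in all 30 libraries. All statements on diet still depend on the characteristic being right. miR-202, an miRNA of gonadal somatic cells, was present in every library at 1055 to 3282, and the liver miRNA miR-122 reached at most 2.84. In whole tissue, fewer cells of a type and less RNA per cell cannot be told apart.

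None of the 4 was an abundant testis miRNA. By mean level miR-296-3p ranked 132 of the 838 miRNAs seen in at least 1 library, miR-335 ranked 169, miR-296-5p ranked 216 and miR-483 ranked 229. The reads behind a single value ran from 244 to 1687 for miR-296-3p, from 28 to 918 for miR-335, from 4 to 348 for miR-296-5p, and were at least 38 with a median of 107 for miR-483. All of these came out as whole reads. The upper limit for a count of 0, 3 reads, corresponded to 0.138 to 1.43 units depending on the library.

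One of the 4 changed with diet. bta-miR-483, the IGF2 miRNA, fell under the High diet, whereas bta-miR-335, bta-miR-296-3p and bta-miR-296-5p did not pass the test. In limma with Benjamini-Hochberg adjustment over the 387 miRNAs, 4.91% of all tested miRNAs passed in either direction, 2.58% as lower and 2.33% as higher under High. The log2 fold change was -0.45 for bta-miR-483, -0.06 for bta-miR-335, 0.0034 for bta-miR-296-3p and 0.39 for bta-miR-296-5p, with adjusted p in limma of 0.0462, 0.829, 0.984 and 0.220.

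**Figure D1:**
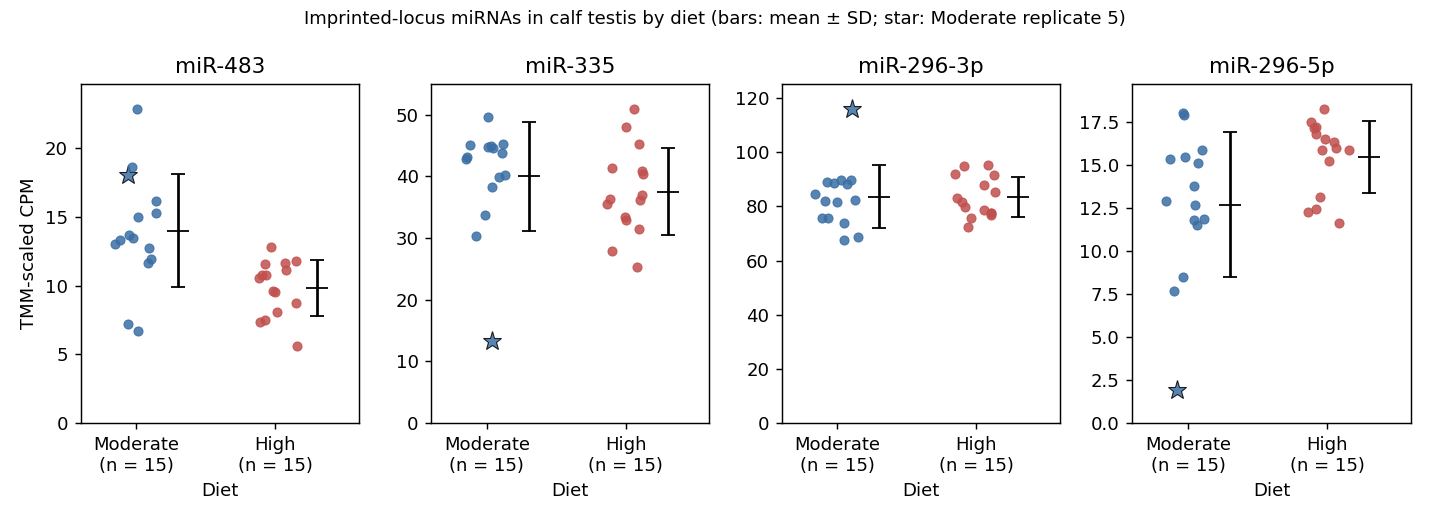
Level of each miRNA in TMM-scaled CPM (vertical axis, from 0) by diet (horizontal axis), 1 point per library, with the mean ± SD of 15 libraries as a bar and Moderate replicate 5 as a star. For miR-483 every High point is under the median of the Moderate points, and the star is the lowest point for miR-335 and miR-296-5p and the highest for miR-296-3p.

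Under the High diet miR-483 ran from 5.59 to 12.8 with a median of 10.6. Under the Moderate diet it ran from 6.70 to 22.9 with a median of 13.5. Every one of the 15 High calves was under the median of the Moderate calves, a pattern that 2.33% of the tested miRNAs showed. Above every High library lay 10 Moderate libraries, and how many tested miRNAs had as many was not counted. The ranges still overlapped, because Moderate replicates 12 (6.70) and 15 (7.20) were as low as the lowest High libraries. The means were 9.84 ± 2.02 and 13.97 ± 4.10 (SD, n = 15 each), and on the log2(value + 0.5) scale the fold change was -0.45 with a standard error of 0.14. As a percentage this is a change of -27.0%, with a 95% confidence interval from -39.9% to -11.5%. The adjusted p was 0.0462 in limma, just inside the threshold of 0.05. It ranked 18 by unadjusted p among the 387, and the unadjusted p was 0.00225.

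The size of the miR-483 difference moved little from library to library, but its call did. When each library was left out in turn the log2 fold change stayed between -0.52 and -0.40, while the adjusted p in limma ran from 0.0267 to 0.0855 and passed in 8 of the 30 fits. Without Moderate replicate 5 it was -0.42 (adjusted p = 0.0381 in limma), where 11.3% of miRNAs passed and 6.7% passed as lower. On the recovered reads edgeR gave -0.52 (adjusted p = 0.0247), where 9.52% of miRNAs passed and 6.88% passed as lower. DESeq2 gave -0.50 (adjusted p = 0.0103), where 5.73% of the 838 miRNAs with a p-value passed and 3.34% passed as lower. Scaling by library totals alone brought it to -0.25 (adjusted p = 0.397 in limma) and raised the median of all tested miRNAs from 0.03 to 0.22, so that relative to that median miR-483 stood at -0.49 with TMM and at -0.47 with totals. Within the shallower libraries the log2 fold change was -0.49 (11 against 13) and within the deeper ones -0.47 (4 against 2), with adjusted p in limma of 0.114 and 0.422. In these ranges 0.773% and 0.976% of all tested miRNAs passed.

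The coefficient of variation of miR-483 between calves was 20.5% among High libraries and 29.9% among the 14 Moderate libraries without replicate 5, where counting error alone would give 10.5% and 9.52%. In Moderate replicate 5 miR-483 was at 18.1, which is 1.73 SD above the mean of the other 29, the smallest deviation of the 4 members in that library. That level came from 38 reads, the fewest of the 30 libraries, under its scaling factor of 0.237.

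The diet in the titles gave no miR-483 difference of this size. Grouped by title, its log2 fold change was -0.072 (adjusted p = 0.981 in limma). Among the 12 libraries whose title and characteristic name one diet, the 6 High libraries ran from 7.49 to 11.6 and the 6 Moderate libraries from 11.97 to 22.9. These 2 groups did not overlap, which held for 1.03% of the tested miRNAs in the same 12 libraries. The log2 fold change there was -0.66 (unadjusted p = 0.00199, adjusted p = 0.155 in limma), and no miRNA passed in this smaller comparison (0% called, with 43 at an unadjusted p under 0.05). Among the 18 libraries whose labels differ, grouped by the characteristic, it was -0.32 (adjusted p = 0.376 in limma), with 9.58 ± 2.36 under High and 12.2 ± 3.26 under Moderate (n = 9 each). Whether the difference in the 12 libraries was larger than in the 18 was not tested.

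miR-335, the MEST miRNA, did not pass the test over all libraries (adjusted p = 0.829 in limma). Its values ran from 25.3 to 50.9 (median 36.3) under High and from 13.3 to 49.6 (median 43.2) under Moderate. The means were 37.5 ± 7.11 and 39.98 ± 8.83 (n = 15 each), a change of -4.28% with a 95% confidence interval from -20.6% to 15.4%. The lowest value was that of Moderate replicate 5, at -4.06 SD from the mean of the other 29. Without it the Moderate mean was 41.9 ± 5.04 (n = 14), the log2 fold change -0.17 and the adjusted p 0.182 in limma, and with or without it 12 of 15 High calves were under the Moderate median. How many tested miRNAs had 12 High calves under that median was not counted. With any single library left out, the unadjusted p of miR-335 in limma was at least 0.0566.

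The values of miR-335 were also taken within each set of libraries. In the 18 libraries with differing labels each of the 9 High calves was under the Moderate median, as was so on one side or the other for 8.27% of the tested miRNAs. High libraries there averaged 33.9 ± 5.31 and Moderate ones 41.7 ± 4.91 (n = 9 each), a log2 fold change of -0.30 (unadjusted p = 0.00630, adjusted p = 0.142 in limma). In the 12 libraries with agreeing labels the log2 fold change was 0.29 (adjusted p = 0.627 in limma), and 0.023 without Moderate replicate 5, where the means were 42.9 ± 6.14 (n = 6) and 42.2 ± 5.85 (n = 5). By title diet miR-335 stood at 0.30 (unadjusted p = 0.0208, adjusted p = 0.981 in limma). A test between both sets of libraries was not made, and none of these values passed after adjustment.

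**Figure D2:**
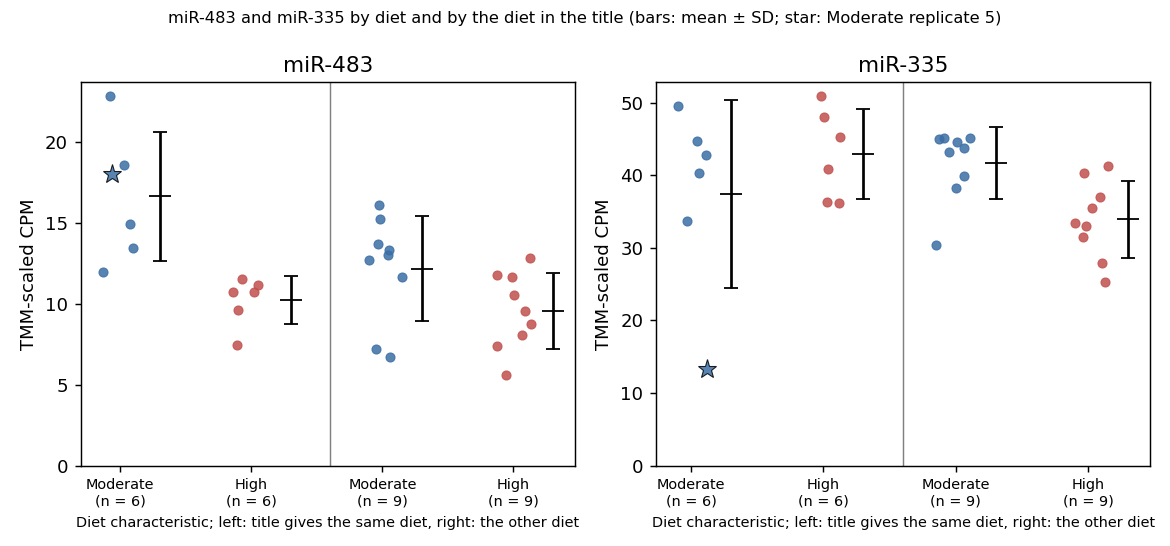
Level of miR-483 and miR-335 in TMM-scaled CPM (vertical axis, from 0) by diet characteristic, with the 12 libraries whose title gives the same diet at left of the grey line and the 18 whose title gives the other diet at right; bars are mean ± SD and the star is Moderate replicate 5. For miR-483 the groups do not overlap at left (6 against 6), and at right they overlap, with 5 of 9 Moderate points above every High point. For miR-335 every High point at right is under the Moderate median, and at left 3 of 6 are.

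miR-296-3p, the more abundant arm of the GNAS-region hairpin, was the steadiest of the 4. It ran from 72.5 to 95.3 (median 81.5) under High and from 67.5 to 116 (median 82.4) under Moderate. The means were 83.4 ± 7.43 and 83.6 ± 11.7 (n = 15 each), and the change of 0.235% had a 95% confidence interval from -8.39% to 9.68%. The direction of so small a value turned with the tool and the library, from -0.041 in edgeR to 0.038 in limma without Moderate replicate 5. Over all alternatives it ran from -0.13 in the deeper libraries to 0.21 with library totals, the scaling that put the median of all tested miRNAs at 0.22. Moderate replicate 5 held the highest value, 116, at 4.48 SD above the mean of the other 29. That level came from 244 reads, the fewest of the 30 libraries, under its scaling factor of 0.237. Among High libraries the coefficient of variation was 8.92%, where counting error gives 3.46%.

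miR-296-5p, the less abundant arm, had its lowest values in 3 Moderate libraries. Under High it ran from 11.6 to 18.3 (median 15.999), and under Moderate from 1.90 to 18.02 (median 12.9). Of the High libraries 12 of 15 lay above the Moderate median, as 18.3% of the tested miRNAs had at least 12 High libraries do. The means were 15.5 ± 2.09 and 12.7 ± 4.22 (n = 15 each). The log2 fold change was 0.39 with a standard error of 0.19, an unadjusted p of 0.0466 and an adjusted p of 0.220 in limma. At an unadjusted p under 0.05 were 21.2% of the tested miRNAs.

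The 3 lowest libraries were Moderate replicate 5 at 1.90, which is 4 reads with an exact 95% Poisson interval of 0.518 to 4.87 units for counting error only, and Moderate replicates 2 and 9 at 7.65 and 8.51. These last 2 are the only Moderate libraries in the deeper range. There the 4 High libraries lay between 15.9 and 17.2, so the diets did not overlap, which was also true of 21.2% of tested miRNAs in those 6 libraries. The log2 fold change in the deeper range was 0.99 (4 against 2, adjusted p = 0.0166 in limma, where 0.976% of miRNAs passed). In the 24 shallower libraries it was 0.27 (adjusted p = 0.576 in limma). In the shallower libraries without Moderate replicate 5 it was 0.071 (11 against 12, adjusted p = 0.709 in limma), with means of 15.1 ± 2.31 and 14.4 ± 2.28. The difference between the depth ranges was not tested. Over all depths and without Moderate replicate 5, the log2 fold change was 0.22 (adjusted p = 0.154 in limma).

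The ratio of the 2 arms within a library does not depend on how the library is scaled. miR-296-3p exceeded miR-296-5p in all 30 libraries. The ratio ran from 4.39 to 8.16 (median 4.87) under High, and from 3.75 to 11.1 (median 6.12) in the 14 Moderate libraries without replicate 5. In Moderate replicate 5 it was 61.0, from 244 against 4 reads. Moderate replicates 2 and 9 had the next highest ratios, 11.1 and 10.5, and the 4 deeper High libraries lay between 4.57 and 4.99. On the log2(value + 0.5) scale the ratio differed between the diets by -0.38, with a standard error of 0.24 and an adjusted permutation p of 0.114 over 6 ratios. Without Moderate replicate 5 it differed by -0.18 (adjusted permutation p = 0.191, two-sided, 100000 resamples). In the shallower libraries without that library the ratio averaged 5.78 ± 1.35 under High (n = 11) and 5.75 ± 1.18 under Moderate (n = 12).

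**Figure D3:**
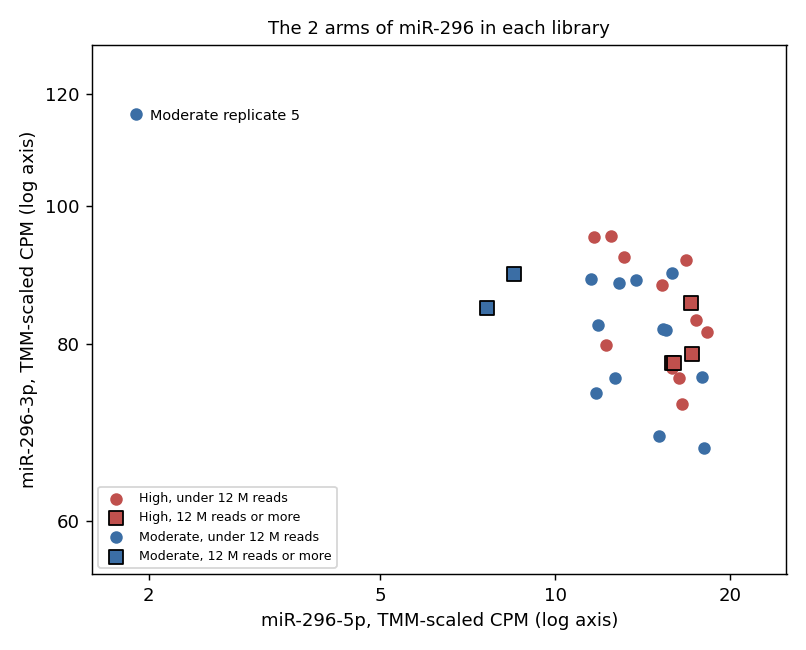
miR-296-3p (vertical, log axis) against miR-296-5p (horizontal, log axis) in TMM-scaled CPM, 1 point per library, coloured by diet, with squares for the 6 libraries of 12 M reads or more. Moderate replicate 5 lies far to the left at 1.90, followed by the 2 deeper Moderate libraries at 7.65 and 8.51, whereas the 4 deeper High libraries lie between 15.9 and 17.2.

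miR-6123, whose gene the table puts in the same non-coding RNA as miR-296, was looked at after its position was seen. It stood at 15.1 ± 2.27 under High and 13.6 ± 2.94 under Moderate (n = 15 each), a log2 fold change of 0.18 (adjusted p = 0.415 in limma). Like miR-296-5p it was lowest in Moderate replicate 5, at 4.28, against at least 11.8 in the other 29. Unlike miR-296-5p it was not low in Moderate replicates 2 and 9, at 12.8 and 16.2.

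The members were then set against each other within each library, in 6 log2 ratios of value + 0.5. The ratio of miR-483 to miR-296-3p was lower under High by 0.46 (standard error 0.15), with 15 of 15 High calves under the Moderate median and an adjusted permutation p of 0.00870. For miR-483 to miR-296-5p the difference was -0.84 (standard error 0.27, adjusted permutation p = 0.00660), again with 15 of 15 under that median, and -0.65 without Moderate replicate 5 (adjusted permutation p = 0.0138). The miR-483 part of both ratios is the change already described. The ratio of miR-335 to miR-296-5p was also lower under High, by 0.45 (standard error 0.14, adjusted permutation p = 0.00870, 13 of 15 High calves under the Moderate median). Alone, miR-335 stood at -0.06 and miR-296-5p at 0.39, and neither passed. Without Moderate replicate 5 the ratio differed by -0.39 (adjusted permutation p = 0.0139). In the shallower libraries it did not pass (-0.34, adjusted permutation p = 0.0696). The ratio of miR-483 to miR-335 differed by -0.39 (standard error 0.21, adjusted permutation p = 0.106), so a larger diet difference of miR-483 than of miR-335 was not shown in the 30 libraries. In the 12 libraries with agreeing labels it differed by -0.95 (adjusted exact permutation p = 0.0260, n = 6 each), and in the 18 others by -0.019 (adjusted exact permutation p = 0.936, n = 9 each). The 12 include Moderate replicate 5, the only library where miR-483 (18.1) exceeded miR-335 (13.3), and the ratio was not computed in the 12 without it. miR-335 to miR-296-3p differed by -0.067 (standard error 0.18, adjusted permutation p = 0.759).

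Across calves of one diet the 4 miRNAs did not rise and fall together. With the diet mean subtracted, the 2 arms of miR-296 ran against each other (Pearson r = -0.70, permutation p = 9.00e-05, adjusted permutation p = 0.000540 over 6 pairs; Spearman rho = -0.42, permutation p = 0.0204, adjusted permutation p = 0.122; 30 libraries). Without the 2 libraries farthest from the median, Moderate replicates 5 and 3, r was -0.40, and without Moderate replicate 5 alone it was -0.47 (adjusted permutation p = 0.0584). miR-335 had r = 0.68 with miR-296-5p (permutation p = 0.0115, adjusted 0.0230; rho = 0.09, permutation p = 0.634, adjusted 0.634) and -0.59 with miR-296-3p (permutation p = 0.00233, adjusted 0.00699; rho = -0.29, permutation p = 0.117, adjusted 0.233). Both rested on 1 library. Without Moderate replicate 5 they were 0.013 and -0.26, and without the 2 farthest libraries of the 30, Moderate replicate 5 and High replicate 3, they were 0.12 and -0.27. miR-483 had no such relation to another member: its r was -0.19 with miR-335, 0.07 with miR-296-3p and -0.29 with miR-296-5p (adjusted permutation p = 0.367, 0.705 and 0.188), with rho of -0.11, 0.12 and -0.33 (adjusted permutation p = 0.634, 0.634 and 0.227). Without Moderate replicates 12 and 15, the 2 farthest, those r were -0.12, 0.16 and -0.20.

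The miRNAs whose pattern was most like each member were taken by Spearman rho of log2 values with the diet mean subtracted, over the 29 libraries without Moderate replicate 5 and among 386 others. These values describe libraries that share a scaling and carry no test. For miR-483 they were miR-376e and miR-345-3p (rho = 0.58 each) and miR-214 (0.54), an miRNA abundant in fibroblasts. miR-376e belongs to the imprinted DLK1-DIO3 region, and it stood at a log2 fold change of -0.28 (adjusted p = 0.192 in limma). With Moderate replicate 5 included, the 3 nearest to miR-483 were instead miR-127 (0.56), miR-342 (0.53) and miR-432 (0.52), of which miR-127 and miR-432 are of the same region. For miR-335 the nearest were miR-95 (0.54), miR-429 (0.53), an epithelial miRNA, and miR-21-5p (0.48). With that library included they were miR-95 (0.64), miR-455-5p (0.59) and miR-326 (0.51). miR-296-3p was nearest to miR-6529a (0.67), miR-151-3p (0.65) and miR-2478 (0.60), the same 3 with or without that library. miR-296-5p was nearest to let-7d (0.75), miR-628 (0.58) and miR-17-5p (0.53), and with that library included to let-7d (0.67), miR-628 (0.64) and miR-345-5p (0.61).

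Beside other imprinted miRNAs, miR-483 fell like part of the DLK1-DIO3 region, while miR-335 and the miR-296 arms did not pass. Of the 62 miRNAs on the list of that region 46 were tested. In limma 8 of these fell, none rose (0) and the other 38 missed the threshold, where 2.58% of all tested miRNAs fell, with a median log2 fold change of -0.25 against 0.03 for all 387. miR-127, its most abundant member, averaged 14367 ± 2034 in High and 18348 ± 3215 in Moderate calves. Its log2 fold change was -0.35 (adjusted p = 0.0260 in limma), a proportionally smaller value than the -0.45 of miR-483. Both comparisons use the same libraries, and the difference between them was not tested. A negative log2 fold change of any size was found for 42 of the 46, for 2 of the 4 members and for 43.7% of all tested miRNAs. miR-184, which has been described as imprinted in the mouse and is the 1 other imprinted miRNA outside the region analysed here, stood at 4.17 ± 1.65 under High and 8.46 ± 10.4 under Moderate (adjusted p = 0.544 in limma). Its 2 highest values were 37.3 in Moderate replicate 2 and 28.5 in Moderate replicate 5.

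**Figure D4:**
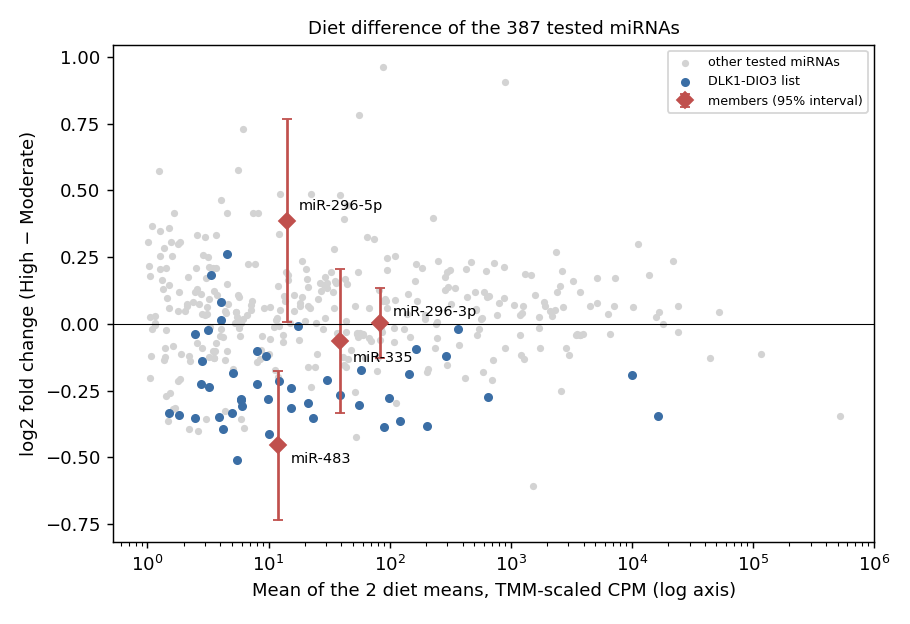
Log2 fold change, High minus Moderate (vertical), against mean level in TMM-scaled CPM (horizontal, log axis) for the 387 tested miRNAs; diamonds are the 4 members with 95% confidence intervals and blue points the 46 tested miRNAs of the DLK1-DIO3 list. miR-483 at -0.45 lies among the lowest points, and the intervals of miR-335 and miR-296-3p include 0. The intervals are not adjusted for the number of miRNAs tested. That of miR-296-5p, 0.006 to 0.77, excludes 0 although its adjusted p was 0.220 in limma.

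The IGF pathway was followed through a list of 12 names of miRNAs known to be directed at IGF1 or the IGF1 receptor, the receptor through which IGF2 also signals. Every arm and lettered form of these names was taken, which gave 19 miRNAs. Not each of these forms is itself known to be directed at either. Of these 19 miRNAs 14 were tested: 1 rose, 0 fell and 13 did not pass in limma, where 2.33% of all tested miRNAs rose and 2.58% fell. The one that rose was miR-497, of the miR-15 and miR-16 family, which averaged 200.4 ± 44.7 in Moderate and 256 ± 30.1 in High calves (log2 fold change 0.40, adjusted p = 0.0462 in limma). The median log2 fold change of the list was 0.04, against 0.03 for all tested. miR-223, a myeloid miRNA, stood at -0.40 (adjusted p = 0.415) and miR-99a-5p at -0.18 (adjusted p = 0.359 in limma), and the other 11 tested lay between -0.15 and 0.16.

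Markers of cell types that a testis sample can hold were read beside the miR-483 result. In the germ cell list 2 of 3 rose and 0 fell, where 2.33% of all tested miRNAs rose. miR-34c, abundant in meiotic and later germ cells, averaged 113 ± 42.1 in High and 64.6 ± 37.0 in Moderate calves (log2 fold change 0.96, adjusted p = 0.0260 in limma). miR-34b stood at 0.73 (adjusted p = 0.0313 in limma), whereas miR-449a stood at 0.022 (adjusted p = 0.949 in limma). Whether meiotic cells were present at 12 weeks of age was not tested. The summed level of the germ cell list ran from 89.3 to 265 under High and from 21.9 to 185 under Moderate. The lowest Moderate sum was that of replicate 5 and the next was 40.5, and none of the list's members was at 0. No tested miRNA passed in limma among those of smooth muscle (2), endothelium (2), fibroblasts (4), red blood cells (3), leukocytes (5), epithelium (4), gonadal somatic cells (1), striated muscle (3) or neural cells (2). Of all tested miRNAs 4.91% passed in either direction, and 43.7% had a negative log2 fold change of any size. Log2 fold changes were negative for 4 of the epithelial (median -0.27), 5 leukocyte, 2 smooth muscle, 3 fibroblast and 1 neural miRNAs. They were negative for 0 of endothelium, red blood cells, gonadal somatic cells and striated muscle, where miR-499 stood at 0.57 (adjusted p = 0.0638 in limma). The fibroblast sum ran from 4666 to 5751 under High and from 4378 to 6130 under Moderate without replicate 5, in which it was 2620. The red blood cell sum was 7927 in Moderate replicate 5 and 755 to 3606 in the other 29. Sums in Moderate replicate 5 carry its scaling factor of 0.237, and whether its cell or blood content differed was not tested. Of the striated muscle markers miR-1 and miR-206 were at 0 in every library. The part of germ cells or other cells in the miR-483 difference was not tested.

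**Figure D5:**
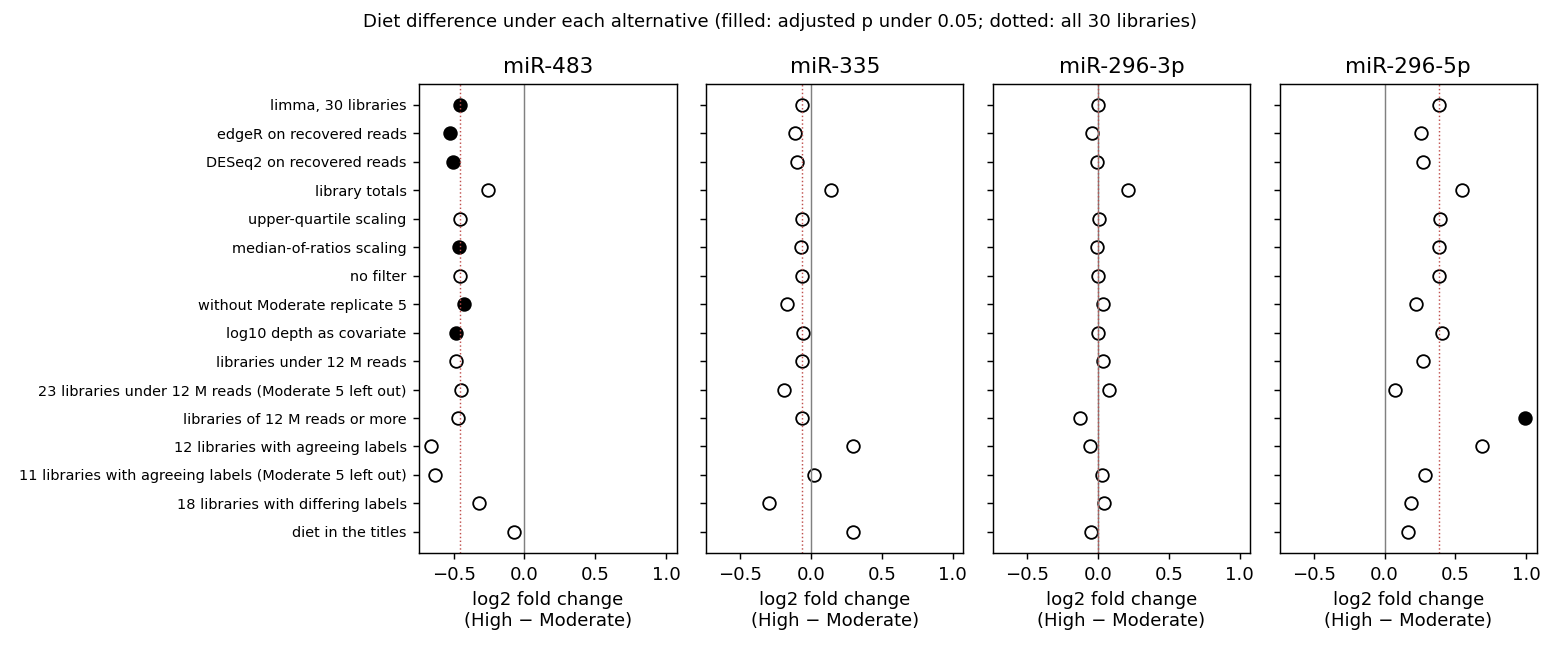
Log2 fold change, High minus Moderate (horizontal), of each member under 16 ways of processing or choosing the libraries (vertical); filled points have an adjusted p under 0.05 and the dotted line is the value over all 30 libraries. miR-483 is below 0 in all 16, and miR-335 is at 0.29 in the 12 and at -0.30 in the 18 libraries. miR-296-5p is filled in the libraries of 12 M reads or more, at 0.99.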

How the data were processed

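Small RNA of 30 calf testes was sequenced, 15 per diet. RNA came from a Qiagen kit (RNeasy Plus Universal) and libraries from an Illumina kit (TruSeq small RNA), per the labels' protocols. FastQC 0.11.8, cutadapt 2.6, edgeR 3.5 and R 3.4 are named per the submitters' processing notes. No source used here gives the aligner, miRNA reference or build. The authors deposited 1 table whose values are a normalized signal, CPM on TMM-scaled library sizes, as worked out from the values: dividing by the worth of 1 read gave whole reads (within 0.02 read) for 95.3% of 18379 values above 0. No column was left unmatched.

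Diet came from the diet characteristic. The main test was limma 3.58.1 (R 4.3.3) on log2(value + 0.5) with a trended prior variance, for miRNAs at 1 or more in at least 15 libraries, with two-sided p-values adjusted by the Benjamini-Hochberg method at 0.05. edgeR 4.0.16 (quasi-likelihood) and DESeq2 1.42.0 were run on recovered reads rounded to whole numbers. Ratios and correlations were tested by two-sided permutation of 100000 resamples, or exactly where groups were small. Tests were tried on simulated data. Named were the members, list and marker miRNAs that passed or describe a list, the 3 miRNAs most like each member, and miR-127; miR-6123 was added after its position was seen. The members and lists were chosen with earlier results of these data known.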

Additional observations from a re-analysis of the deposited data

Results flagged for a closer look

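When each diet was split by agreement of its title with its characteristic (sets of 6 or 9 libraries), the 4 miRNAs and the arm ratio made 20 sets of values, and in 3 of them the most extreme library stood far from the others. For normally distributed values chance alone does this in about 1 of 20 sets. That rate need not hold for a ratio, and the 20 sets are not independent because the ratio is made from 2 of the 4 miRNAs. miR-335 was 30.37 in Moderate replicate 14, the lowest of the 9 Moderate libraries whose labels differ. The ratio of miR-296-3p to miR-296-5p was 61 in Moderate replicate 5, the highest of the 6 Moderate libraries whose labels agree. The same ratio was 11.08 in Moderate replicate 2, the highest of the 9 Moderate libraries whose labels differ, and that library is also one of the 2 deeper Moderate libraries. The cause of these values was not tested.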

How the results depend on the processing

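No paired analysis was possible because replicates were numbered by accession, which pairs no calves. The settings that leave out Moderate replicate 5 in combination with another choice, and the ratios within depth ranges, were chosen after seeing the data. The log2 fold change of miR-483 kept its sign under all 21 alternatives besides leaving out single libraries, and 9 of these also kept its call. The 12 that lost it were library totals (-0.25, and -0.36 without Moderate replicate 5), upper-quartile scaling (-0.45, adjusted p = 0.0542 in limma), no filter on low values (-0.45, with 838 miRNAs tested), the title diet (-0.072, and -0.028 without Moderate replicate 5), and the parts of the libraries: -0.66 in the 12 with agreeing labels, -0.63 in 11 of them without Moderate replicate 5, -0.32 in the 18 others, -0.49 in the shallower and -0.45 in 23 of these without Moderate replicate 5, and -0.47 in the deeper ones. The parts held fewer samples, and more miRNAs were tested without the filter. Why the call was lost was not tested for any of the 12. miR-335 turned positive with library totals (0.14), the title diet (0.30, and 0.20 without Moderate replicate 5) and the 12 (0.29) or 11 (0.023) libraries with agreeing labels. miR-296-3p turned negative in edgeR (-0.041), DESeq2 (-0.0082), with median-of-ratios scaling (-0.0038), with the title diet (-0.049, and -0.016 without Moderate replicate 5), in the 12 libraries (-0.057) and in the deeper ones (-0.13). miR-296-5p passed in the deeper libraries (0.99) and turned negative with the title diet without Moderate replicate 5 (-0.0097).

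When single libraries were left out, the ranges were -0.52 to -0.40 for miR-483, -0.17 to -0.025 for miR-335, -0.018 to 0.038 for miR-296-3p (10 of 30 negative) and 0.22 to 0.43 for miR-296-5p. Over all tested miRNAs 19 passed in limma. Leaving out single libraries gave 0 (without High replicate 5, with 76 at an unadjusted p under 0.05) to 44 (without Moderate replicate 5). edgeR gave 36 and DESeq2 48, and without Moderate replicate 5 they gave 48 and 59. Library totals gave 0 in limma (59 at an unadjusted p under 0.05), and 31 without Moderate replicate 5. In limma 0 passed with no filter (104 at an unadjusted p under 0.05), with the title diet (11, and 13 without Moderate replicate 5) and in the 12, the 11 and the 18 libraries (43, 69 and 58). edgeR and DESeq2 were not run on the title diet or on these sets. DESeq2 gave p-values for 838 miRNAs, but its default filter can leave low-mean miRNAs out of the adjustment. Its 48 is therefore not a like comparison with limma without a filter. In limma 3 passed in the shallower libraries (31 without Moderate replicate 5) and 4 in the deeper ones.

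Of the ratios, leaving out single libraries gave -0.45 to -0.18 for miR-296-3p to miR-296-5p, -0.48 to -0.25 for miR-483 to miR-335, -0.53 to -0.39 for miR-483 to miR-296-3p, -0.94 to -0.65 for miR-483 to miR-296-5p, -0.21 to -0.024 for miR-335 to miR-296-3p and -0.49 to -0.39 for miR-335 to miR-296-5p. With the title diet, miR-483 to miR-296-3p (-0.023) and to miR-296-5p (-0.24) no longer passed, and miR-335 to miR-296-3p (0.35) and to miR-296-5p (0.13) turned positive. In the 12 libraries, Moderate replicate 5 among them, miR-483 to miR-335 passed (-0.95), miR-335 to miR-296-3p was 0.35 and miR-335 to miR-296-5p did not pass (-0.40). In the 18, miR-483 to miR-296-3p (-0.36) and to miR-296-5p (-0.504) did not pass. miR-335 to miR-296-5p did not pass in the shallower libraries (-0.34). In the deeper ones, where 4 against 2 cannot go below an exact permutation p of 0.0667, it was -1.06, miR-483 to miR-296-3p was -0.34 and to miR-296-5p -1.46, and miR-335 to miR-296-3p was 0.065. Without Moderate replicate 5 the correlations were -0.47 (both miR-296 arms), -0.26 and 0.013 (miR-335 with miR-296-3p and miR-296-5p), -0.031 (miR-483 with miR-335), -0.068 and -0.21 (miR-483 with miR-296-3p and miR-296-5p). The fewest reads behind any member's value were the 4 of miR-296-5p in Moderate replicate 5, and the median per library was lowest for miR-483, at 107.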
